A study of Mus musculus with 38 samples.

Results

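The genes described here are those that the heart uses to take up and burn ketone bodies, namely Bdh1, Oxct1, Acat1 and Slc16a1. They were chosen by their symbols, as the rows of the count table whose Ensembl identifier carries one of these names in the GRCm39 annotation, and they are 4 of the 35682 genes of the table. The rule that picks them uses the symbols and no measured value. All 4 were found, and all 4 were detected in every cardiomyocyte library.

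RNA was sequenced from cardiomyocytes, endothelial cells (ECs) and fibroblasts of hearts of male C57BL/6 mice, 8 to 12 weeks old, in 38 libraries that each pooled 2 hearts. Sham mice received vehicle (5% DMSO in saline) by mouth for 6 weeks and an open-chest operation with no ligation, and contributed 4 libraries per population. Control-AMI mice received the same vehicle for 6 weeks, then 30 min of ligation of the left anterior descending artery and 2 h of reperfusion, and contributed 5 cardiomyocyte, 4 EC and 4 fibroblast libraries. EMPA–Pre-AMI mice received the sodium-glucose cotransporter 2 inhibitor empagliflozin at 10 mg/kg/d for 6 weeks before the same ischemia and reperfusion, and contributed 4, 5 and 4 libraries. No drug-treated group without ischemia was among the samples, so the effect of the drug alone cannot be told apart from its effect under ischemia. Cardiomyocytes were pelleted at low speed and not sorted, whereas ECs were sorted as CD45-CD31+ and fibroblasts as CD45-CD31-CD90+ cells.

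Ketone bodies are made by the liver during fasting and other states of low insulin, and are carried in the blood to tissues that oxidize them. In a cell that uses them, β-hydroxybutyrate is turned into acetoacetate, acetoacetate receives coenzyme A from succinyl-CoA, and the product is split into acetyl-CoA for the citrate cycle. The heart is a large consumer of ketone bodies, and sodium-glucose cotransporter 2 inhibitors are known to raise their level in blood. Slc16a1 encodes the monocarboxylate transporter MCT1, through which ketone bodies and lactate cross the plasma membrane. Bdh1 encodes β-hydroxybutyrate dehydrogenase, which starts the pathway in the mitochondrion. Oxct1 encodes succinyl-CoA:3-ketoacid CoA transferase (SCOT), the step that the liver lacks. Acat1 encodes the mitochondrial acetoacetyl-CoA thiolase, which also works in isoleucine breakdown.

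In GRCm39, Slc16a1 (ENSMUSG00000032902) lies on the plus strand at chr3:104545811-104565780, Bdh1 (ENSMUSG00000046598) on the plus strand at chr16:31241087-31277725, and Oxct1 (ENSMUSG00000022186) on the plus strand at chr15:4055638-4184828. Acat1 (ENSMUSG00000032047) lies on the minus strand at chr9:53450461-53521731, where it overlaps Npat on the plus strand. Npat had 2568 counts over all 38 libraries, against 7967 for Acat1. The library kit keeps the strand, but the strand setting used in counting is not given in the sources used here. The other genes annotated over Bdh1, Oxct1 and Slc16a1, 1, 3 and 2 in number, had no row in the table.

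The start regions of Slc16a1 and Bdh1 are shown because these are the genes with the clearest differences between treatment groups. They are RefSeq windows of 300 bases on GRCm38.p6 (a build other than that of the counts), from 250 bases before to 50 after the annotated start, given 5′ to 3′. Bdh1 has 2 such starts. Capitals mark every match to CACGTG or GGGCGG on either strand, so that CCGCCC in the second Bdh1 window is GGGCGG on the minus strand.
Slc16a1, chr3:104638414-104638713, plus strand: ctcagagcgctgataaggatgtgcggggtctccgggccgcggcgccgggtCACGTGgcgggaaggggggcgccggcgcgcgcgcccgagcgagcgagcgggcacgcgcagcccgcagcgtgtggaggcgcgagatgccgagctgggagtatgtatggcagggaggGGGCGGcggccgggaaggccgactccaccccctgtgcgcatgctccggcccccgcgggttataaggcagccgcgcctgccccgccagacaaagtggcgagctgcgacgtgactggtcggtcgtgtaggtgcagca
Bdh1, chr16:31422047-31422346, plus strand: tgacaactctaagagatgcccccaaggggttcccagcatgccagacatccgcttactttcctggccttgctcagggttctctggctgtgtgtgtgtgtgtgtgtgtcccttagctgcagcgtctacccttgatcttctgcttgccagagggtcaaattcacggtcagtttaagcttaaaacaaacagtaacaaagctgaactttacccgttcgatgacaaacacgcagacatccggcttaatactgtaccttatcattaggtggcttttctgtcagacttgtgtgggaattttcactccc
Bdh1, chr16:31428503-31428802, plus strand: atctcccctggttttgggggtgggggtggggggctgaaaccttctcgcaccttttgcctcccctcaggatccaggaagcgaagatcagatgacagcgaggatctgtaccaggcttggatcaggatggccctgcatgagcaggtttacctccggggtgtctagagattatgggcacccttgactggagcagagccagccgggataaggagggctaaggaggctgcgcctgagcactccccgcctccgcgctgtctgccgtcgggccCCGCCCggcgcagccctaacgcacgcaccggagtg

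The Slc16a1 window was 73.7% G and C with 42 CG pairs, against a median of 52.7% over all 32851 windows of this kind. The Bdh1 windows were 48.3% and 63.7% G and C, with 7 and 17 CG pairs. CACGTG stood 200 bases before the Slc16a1 start and GGGCGG 85 bases before it, and GGGCGG began 16 bases after the second Bdh1 start. Over all windows, 7.15% held CACGTG and 35.7% held GGGCGG. The motif AGGTCA, the half-site of many nuclear receptors, was in 16.3% of windows and TATAAA in 13.6%, and neither was in these 3 windows or in that of Oxct1.

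A cardiomyocyte library held 2031716 to 4509284 counts, an EC library 1352514 to 2195308 and a fibroblast library 1946056 to 2821373. Mitochondrially encoded genes took 46.6% to 66% of the counts in cardiomyocytes and at most 14.6% in the other populations. The labelled populations held their defining markers: the summed level of 10 cardiomyocyte markers was 49844 to 109398 CPM (counts in every 1000000 of a library, scaled over all 38 libraries) in cardiomyocytes and at most 1039 in the sorted cells. In ECs, 10 endothelial markers summed to 3844 to 7129 CPM, and in fibroblasts 10 fibroblast markers summed to 11321 to 17581 CPM. The cardiomyocyte libraries also held 447 to 4207 CPM of fibroblast markers and 789 to 1754 CPM of endothelial markers, beside 849 to 1377 CPM of 10 mural, 53.2 to 437 CPM of 10 leukocyte and 74.9 to 5142 CPM of 5 red blood cell markers. In such bulk libraries, fewer cells of a type and less RNA per cell cannot be told apart.

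Cardiomyocytes held far more RNA of all 4 ketone genes than ECs or fibroblasts did. In Sham hearts the difference from ECs was 41.5-fold for Oxct1, 35.0-fold for Slc16a1 and 14.2-fold for Acat1, and Bdh1 was not detected in Sham ECs. From fibroblasts the difference was 85.9-fold for Bdh1, 18.2-fold for Slc16a1, 16.6-fold for Oxct1 and 11.1-fold for Acat1. These values are CPM ratios from a model of all 38 libraries with 9 groups, and levels are compared between populations of cells for one gene at a time. The model treats the libraries as independent, although the populations share hearts.

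MCT1, the transporter, comes first in the pathway. Slc16a1 stood at 316, 244, 283 and 230 CPM in the 4 Sham cardiomyocyte libraries, at 10.6, 4.27, 7.66 and 8.25 CPM in Sham ECs, and at 13.5, 12.1, 20.1 and 13.2 CPM in Sham fibroblasts. All cardiomyocyte values were above all others, and all EC values were below all fibroblast values. The log2 difference between cardiomyocytes and ECs was 5.13 ± 0.34 (SE, FDR = 6.63e-16 by edgeR's quasi-likelihood test), and that between cardiomyocytes and fibroblasts was 4.19 ± 0.32 (FDR = 2.88e-14, edgeR). For ECs against fibroblasts it was -0.94 ± 0.33 (FDR = 0.0229, edgeR).

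Bdh1, the dehydrogenase, was barely counted outside cardiomyocytes. It was counted 118, 93, 134 and 116 times in Sham cardiomyocytes, or 75.9, 50.9, 105 and 66.6 CPM. Sham ECs had no count in any of 4 libraries, and Sham fibroblasts had 0, 3, 9 and 0 counts. A floor of 3 counts, which covers counting error only, is 1.303 CPM in the smallest Sham EC library. The mean of 74.5 CPM in cardiomyocytes was 57.2-fold that floor on the scale of all libraries. This fold rests on that scale: by library size alone the floor is 2.22 CPM, and the fold is smaller. The log2 difference from fibroblasts was 6.43 ± 0.54 (FDR = 2.96e-12, edgeR), a value that rests on 12 fibroblast counts, 9 of them in 1 library. Over all treatment groups, 13 EC libraries held 14 Bdh1 counts and 12 fibroblast libraries held 21, so Bdh1 was not tested between treatment groups in these cells.

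Oxct1, which encodes SCOT, stood at 1677, 1616, 2039 and 1645 CPM in Sham cardiomyocytes. Its levels were 25.5, 39.3, 53.3 and 49.5 CPM in Sham ECs and 107, 83.9, 130 and 98.7 CPM in Sham fibroblasts. The 3 populations did not overlap and ran in the order cardiomyocytes, fibroblasts, ECs. The log2 difference was 5.38 ± 0.31 against ECs (FDR = 4.98e-18, edgeR) and 4.05 ± 0.29 against fibroblasts (FDR = 3.43e-15, edgeR). For ECs against fibroblasts it was -1.32 ± 0.27 (FDR = 9.44e-05, edgeR).

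Acat1, the thiolase, stood at 349, 314, 355 and 295 CPM in Sham cardiomyocytes, at 25.5, 26.5, 20.5 and 19.1 CPM in Sham ECs, and at 25.3, 18.6, 37.2 and 36.5 CPM in Sham fibroblasts. Cardiomyocytes were again above all other libraries, whereas EC and fibroblast values overlapped. The log2 difference was 3.83 ± 0.21 against ECs (FDR = 1.40e-18, edgeR) and 3.48 ± 0.21 against fibroblasts (FDR = 1.59e-17, edgeR). Between ECs and fibroblasts it was -0.35 (95% interval -0.76 to 0.05, FDR = 0.168, edgeR), within the spread of the libraries.

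**Figure D1:**
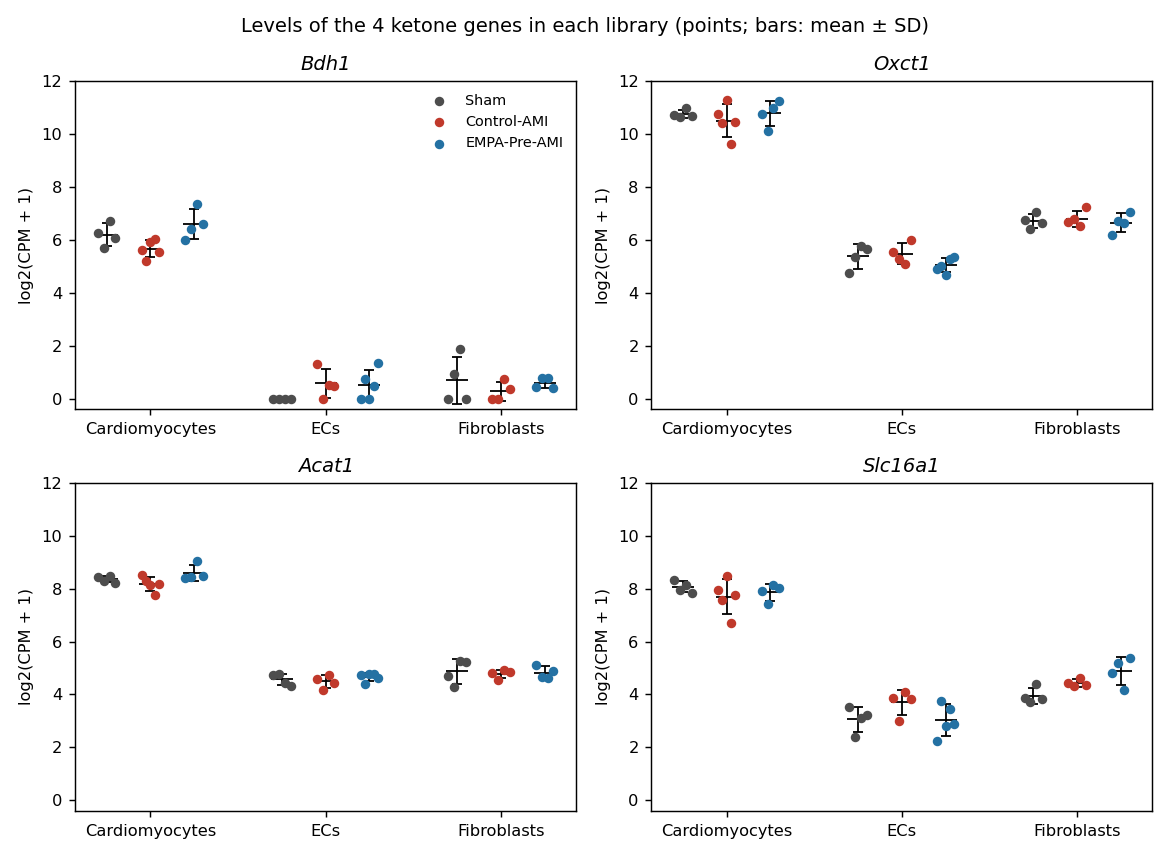
Level of each gene in each of the 38 libraries, as log2(CPM + 1) on the scale of all libraries, by population and treatment group. Points are libraries and bars are the mean ± SD. Cardiomyocyte points lie above those of the other populations for all 4 genes, and Bdh1 lies near 0 in ECs and fibroblasts.

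All 4 genes were called higher in cardiomyocytes than in ECs, where 28.1% of the 12085 genes tested were called in that direction, and all 4 were higher than in fibroblasts, where 24.5% were. Lower levels in ECs than in fibroblasts were called for 2 of the 3 genes tested there, against 20.2% of all genes. Lack of overlap was also common among the 12085 genes. Sham cardiomyocytes were wholly above Sham ECs for 3374 and wholly above Sham fibroblasts for 2904, and Sham ECs wholly below Sham fibroblasts for 2235. The size of these differences depends on the scaling: with library size alone the median of all genes moved by -1.81 against ECs and by -1.74 against fibroblasts on the log2 scale. All 4 genes were still called higher in cardiomyocytes by that scaling, the smallest log2 difference being 1.72 for Acat1 against fibroblasts. Sham ECs and Sham fibroblasts shared no sample list (one of 4 runs of sample-sheet numbers in the labels, which the labels do not call a batch). With a term for the list the difference between them was -0.46 for Oxct1 (FDR = 0.401) and -0.49 for Slc16a1 (FDR = 0.528), both by edgeR. Sham cardiomyocytes, all on list 4, shared no list with Sham ECs, and shared list 4 with 1 Sham fibroblast library. With the list term all 4 genes were still called higher in cardiomyocytes in both comparisons.

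RNA of cardiomyocyte markers was also present in the sorted cells, and its level is given beside that of the ketone genes. In Sham ECs, the 10 markers stood at 0% to 2.31% of their cardiomyocyte level, with a median of 0.566%, whereas Oxct1 stood at 2.40%, Slc16a1 at 2.87% and Acat1 at 6.99%. In Sham fibroblasts the markers stood at 0% to 2.58%, with a median of 0.377%, whereas Slc16a1 stood at 5.48%, Oxct1 at 6.02% and Acat1 at 8.95%. Bdh1, at 1.19% in fibroblasts, lay inside the range of the markers, and the marker at 0 in both was the transcription factor gene Nkx2-5. How much of the level in the sorted cells came from cardiomyocyte RNA was not tested.

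**Figure D2:**
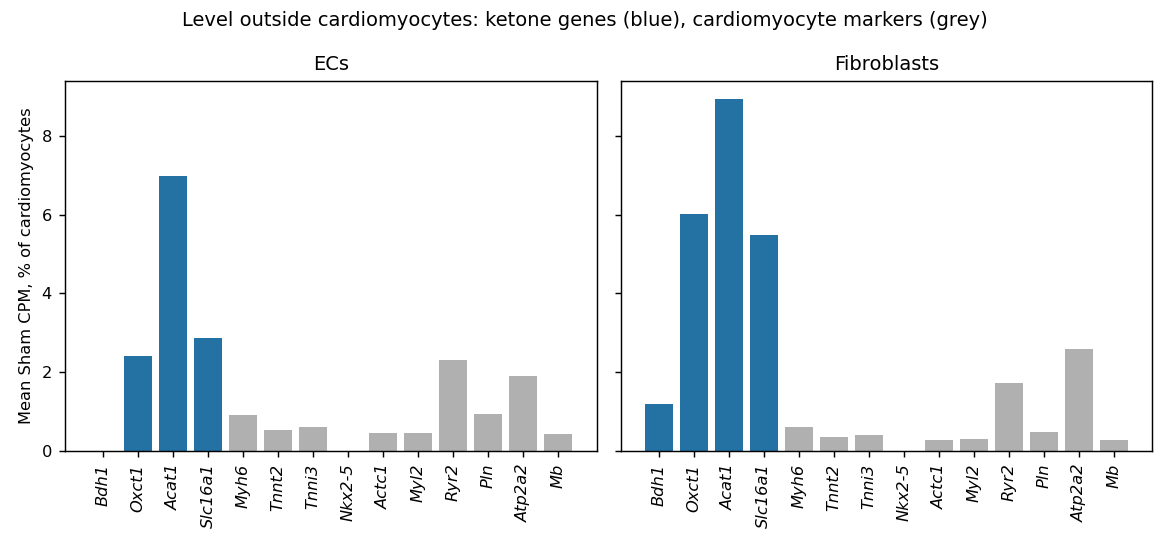
Mean Sham level in ECs (left) and fibroblasts (right) as a percentage of the mean Sham level in cardiomyocytes, for the 4 ketone genes (blue) and 10 cardiomyocyte markers (grey). Oxct1, Acat1 and Slc16a1 stand above every marker in both panels, and Bdh1 does not.

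In cardiomyocytes, Bdh1 differed most among the 4 genes between treatment groups, with the lowest mean in Control-AMI and the highest in EMPA–Pre-AMI. The values in this and the following comparisons are CPM scaled within one population. Bdh1 stood at 33.2, 22.6, 45.8 and 29.5 CPM in Sham, at 20.9, 16.2, 25.9, 30.0 and 20.3 CPM in Control-AMI, and at 28.8, 43.6, 71.6 and 42.2 CPM in EMPA–Pre-AMI. EMPA–Pre-AMI replicates 2, 3 and 4 were above every Control-AMI library, and replicate 1 was below Control-AMI replicate 4, so the groups overlapped. The means were 32.8 ± 9.75 (SD, n = 4), 22.7 ± 5.35 (n = 5) and 46.5 ± 18 CPM (n = 4).

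For Bdh1, EMPA–Pre-AMI was 2.07-fold Control-AMI, with a 95% interval of 1.42 to 3.01 (log2 difference 1.05 ± 0.26, SE, FDR = 0.0571 by edgeR). This missed an FDR of 0.05 and was under 0.1, a second threshold that is shown for this comparison. By DESeq2, the same difference was 1.07 with an adjusted p of 0.0115, in a comparison where DESeq2 called 812 genes, 8.86% of those tested, and edgeR 2. Leaving out EMPA–Pre-AMI replicate 3, the library with the most Bdh1, gave a log2 difference of 0.75 (FDR = 0.195, edgeR). Leaving out replicate 1 or 4 of the same group brought the FDR to 0.0383 and 0.0134, and the FDR over all alternatives ran from 0.0115 to 0.999.

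The sample lists moved with these groups. All Sham and Control-AMI cardiomyocyte libraries stood on list 4, whereas EMPA–Pre-AMI replicates 1 and 3 were on list 3 and replicate 2 on list 2. On list 4 alone, where EMPA–Pre-AMI has 1 library that is assumed to vary like the other groups, the difference in Bdh1 was 0.91 (FDR = 0.989, edgeR), and with a term for the list it was 0.90 (FDR = 0.999, edgeR). EMPA–Pre-AMI replicate 3 also had the highest summed cardiomyocyte markers of all libraries (109398 CPM) and the lowest fibroblast markers of the cardiomyocyte libraries (447 CPM). Summed fibroblast markers were 1846 to 4207 CPM in Control-AMI and 447 to 2549 CPM in EMPA–Pre-AMI, and summed cardiomyocyte markers 49844 to 103933 CPM and 59119 to 109398 CPM. Their part in the Bdh1 difference was not tested.

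Against Sham, Bdh1 was -0.53 ± 0.26 in Control-AMI (unadjusted p = 0.0557, FDR = 1.00, edgeR) and 0.52 ± 0.27 in EMPA–Pre-AMI (unadjusted p = 0.0662, FDR = 0.307, edgeR) on the log2 scale. Neither passed the threshold. The 95% intervals, -1.06 to 0.01 and -0.04 to 1.09, include no difference at one end and a change of 1 log2 unit at the other.

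Acat1 stood at 153, 139, 155 and 130 CPM in Sham, at 156, 141, 120, 101 and 129 CPM in Control-AMI, and at 155, 179, 231 and 153 CPM in EMPA–Pre-AMI. EMPA–Pre-AMI replicates 2 and 3 were above all others, and replicates 1 and 4 lay just below the highest Control-AMI library. The log2 difference of EMPA–Pre-AMI from Control-AMI was 0.48 ± 0.18 (unadjusted p = 0.0162, FDR = 0.118, edgeR), which passed neither threshold. It was 0.33 (FDR = 0.379, edgeR) without EMPA–Pre-AMI replicate 3.

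Oxct1 stood at 735, 717, 892 and 728 CPM in Sham cardiomyocytes, at 745, 616, 1086, 366 and 621 CPM in Control-AMI, and at 783, 575, 898 and 1060 CPM in EMPA–Pre-AMI. Both the lowest and the highest library were in Control-AMI, replicates 4 and 3, and the groups overlapped. The differences were -0.16 ± 0.25 for Control-AMI against Sham, 0.27 ± 0.25 for EMPA–Pre-AMI against Control-AMI and 0.11 ± 0.26 for EMPA–Pre-AMI against Sham (log2, FDR = 1.00, 0.523 and 0.853, edgeR).

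Slc16a1 stood at 139, 108, 124 and 102 CPM in Sham cardiomyocytes, at 105, 85.6, 155, 47.3 and 96.2 CPM in Control-AMI, and at 110, 87.1, 123 and 113 CPM in EMPA–Pre-AMI. Again Control-AMI held the lowest library, replicate 4, and the highest, replicate 3. Control-AMI replicate 4 also had the lowest summed cardiomyocyte markers of the cardiomyocyte libraries (49844 CPM) and the highest fibroblast markers (4207 CPM), and replicate 3 had the lowest fibroblast markers of its group (1846 CPM). The differences were -0.27 ± 0.24, 0.15 ± 0.24 and -0.12 ± 0.26 in the same order (log2, FDR = 1.00, 0.740 and 0.833, edgeR).

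None of the 4 genes passed an FDR of 0.05 in the 3 comparisons of cardiomyocytes, where 0.0655% of the 9167 genes tested did for Control-AMI against Sham, 0.0218% for EMPA–Pre-AMI against Control-AMI and 0.338% for EMPA–Pre-AMI against Sham. Unadjusted p was under 0.05 for 2 of the 4 in EMPA–Pre-AMI against Control-AMI, Bdh1 and Acat1, where 25% of all genes had one, and for none in the other comparisons. DESeq2 called 1 of the 4, Bdh1. At an FDR of 0.1, Bdh1 was 1 of the 489 genes called higher in EMPA–Pre-AMI than in Control-AMI, 5.33% of those tested. With library size alone the median of all genes moved by -0.31 in that comparison, and Bdh1 was 1.02 above that median, against 1.06 above it by TMM (log2). The call of Bdh1 at 0.1 was lost by that scaling (0.70, FDR = 0.167, edgeR) and with only the 2 groups compared (1.04, FDR = 0.168, edgeR). It was also lost with the replicate block (FDR = 0.113, edgeR) and with a term for the sample list (FDR = 0.999, edgeR). Leaving out Control-AMI replicate 4 (FDR = 0.106), Control-AMI replicate 5 (FDR = 0.114) or EMPA–Pre-AMI replicate 3 (FDR = 0.195) lost it too, all by edgeR. Of 24 alternatives, 16 kept it.

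**Figure D3:**
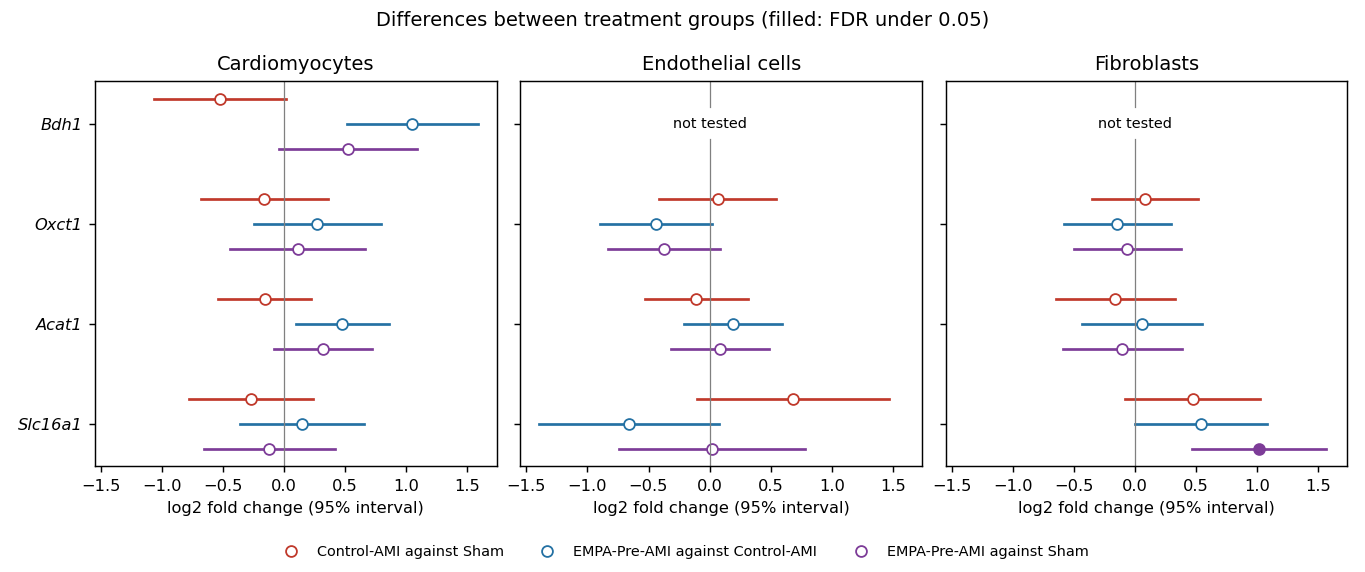
Log2 fold changes with 95% intervals for the 4 genes in cardiomyocytes, endothelial cells and fibroblasts, in the 3 comparisons of treatment groups. A filled point has an FDR under 0.05 by edgeR, which holds for Slc16a1 in fibroblasts of EMPA–Pre-AMI against Sham (1.01) and for no other.

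In fibroblasts, Slc16a1 rose in EMPA–Pre-AMI against Sham, 2.02-fold with a 95% interval of 1.38 to 2.96. It stood at 19.9, 18, 29.5 and 19.5 CPM in Sham, at 29.9, 27.8, 34.9 and 28.0 CPM in Control-AMI, and at 39.96, 51.6, 24.8 and 58.8 CPM in EMPA–Pre-AMI. EMPA–Pre-AMI replicates 1, 2 and 4 were above every Sham and Control-AMI library, while replicate 3 was below Sham replicate 3, so the groups overlapped. The means were 21.7 ± 5.24, 30.1 ± 3.30 and 43.8 ± 14.9 CPM (SD, n = 4 each), from 41 to 121 counts per library.

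The log2 difference of Slc16a1 between EMPA–Pre-AMI and Sham fibroblasts was 1.01 ± 0.26 (SE, FDR = 0.0334, edgeR). Higher levels were called for 3.65% of the 10691 genes tested in this comparison, and a change in either direction for 5.11%. The intermediate steps did not pass: Control-AMI against Sham gave 0.47 ± 0.26 (FDR = 0.339, edgeR), and EMPA–Pre-AMI against Control-AMI gave 0.54 ± 0.26 (unadjusted p = 0.0503, FDR = 1.00, edgeR). The call was lost when any of 5 libraries was left out, namely Sham replicates 1, 2 and 4 and the EMPA–Pre-AMI replicates 2 and 4, each time with a log2 difference of 0.84 to 0.97, and the FDR over the 12 libraries left out ran from 0.0111 to 0.107. With a term for the sample list it was 1.13 (FDR = 0.0147, edgeR), and on list 4 alone, with 1 Sham library that is assumed to vary like the others, 0.95 (FDR = 0.291, edgeR).

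Other cell markers in these fibroblast libraries were compared with the groups. Summed mural cell markers were 726 to 2081 CPM in Sham and 1144 to 2323 CPM in EMPA–Pre-AMI, and summed fibroblast markers 12547 to 17581 CPM and 11321 to 16130 CPM. Endothelial markers summed to 111 to 476 CPM and 139 to 582 CPM, and leukocyte markers to 7.15 to 398 CPM and 14.7 to 25.5 CPM. All of these ranges overlapped between the groups, and their part in the Slc16a1 difference was not tested.

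Oxct1 and Acat1 were not called in fibroblasts. Oxct1 ranged from 125 to 191 CPM in Sham, 133 to 216 CPM in Control-AMI and 105 to 192 CPM in EMPA–Pre-AMI, and Acat1 from 27.7 to 54.6, 33 to 42.6 and 34.3 to 49.8 CPM. Their 6 log2 differences lay between -0.16 and 0.08, with standard errors of 0.21 to 0.23, and 95% intervals that reached from -0.65 to 0.55. Of all genes tested, 4.16% were called in Control-AMI against Sham and 0% in EMPA–Pre-AMI against Control-AMI, where 170 genes had an unadjusted p under 0.05 by edgeR and DESeq2 also called 0.

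In ECs, none of the 3 genes tested passed the threshold, and the widest differences were again those of Slc16a1. It stood at 17.1, 6.66, 12.2 and 13.2 CPM in Sham, at 21.3, 11.1, 25.4 and 20.5 CPM in Control-AMI, and at 5.92, 20.0, 9.61, 16.1 and 10.2 CPM in EMPA–Pre-AMI. Control-AMI replicates 1, 3 and 4 were above the other groups, and Control-AMI replicate 2 lay among them. The log2 difference was 0.68 ± 0.38 for Control-AMI against Sham (FDR = 0.337, edgeR), -0.66 ± 0.36 for EMPA–Pre-AMI against Control-AMI (FDR = 0.482, edgeR) and 0.02 ± 0.37 for EMPA–Pre-AMI against Sham (FDR = 0.987, edgeR). These levels rest on 11 to 47 counts per library.

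Summed fibroblast markers moved with the EC groups. They were 410 to 1074 CPM in Sham, 1449 to 5294 CPM in Control-AMI and 361 to 722 CPM in EMPA–Pre-AMI, so that Control-AMI did not overlap the others. Endothelial markers were 6726 to 7129, 3844 to 5174 and 5013 to 6524 CPM in the same order, and red blood cell markers 9.85 to 111, 151 to 635 and 195 to 815 CPM. Their part in the Slc16a1 values of ECs was not tested. Oxct1 in ECs was 41.3, 61.3, 84.7 and 79.1 CPM in Sham, 71.2, 59.5, 50.8 and 97.1 CPM in Control-AMI, and 45.8, 49.7, 39.6, 59.9 and 62.2 CPM in EMPA–Pre-AMI. All groups overlapped, and the largest difference was -0.44 ± 0.22 for EMPA–Pre-AMI against Control-AMI (FDR = 0.437, edgeR).

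Acat1 varied least in ECs, from 26.8 to 42.0 CPM over all 13 libraries. Its 3 log2 differences were -0.11, 0.19 and 0.08, with standard errors of 0.19 to 0.21 (FDR = 0.831, 0.800 and 0.888, edgeR). Of the 10438 genes tested in ECs, 6.56% were called in Control-AMI against Sham, 2.63% in EMPA–Pre-AMI against Control-AMI and 2.71% in EMPA–Pre-AMI against Sham.

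Whether a treatment difference was itself different between populations was tested in the model of all libraries for Oxct1, Acat1 and Slc16a1. Of these 27 tests, which treat the libraries as independent although populations share hearts, none had an FDR under 0.05. Over all genes and the 9 such comparisons, 1.65% of tests were called. The smallest FDR was that of Slc16a1 in EMPA–Pre-AMI against Sham, where the log2 difference in cardiomyocytes minus that in fibroblasts was -1.20 ± 0.41 (FDR = 0.0691, edgeR). The call of Slc16a1 in fibroblasts is therefore not shown to be particular to them.

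Genes around the 4 were taken from 10 lists of 54 genes in all, the 4 included: ketone synthesis, cytosolic acetoacetate use, monocarboxylate carriers, sensing receptors, lactate dehydrogenases, makers of succinyl-CoA, entry of acetyl-CoA into the citrate cycle, isoleucine breakdown and regulators. Of these, 38 were tested in cardiomyocytes. In EMPA–Pre-AMI against Control-AMI, 36 of the 38 had a positive log2 difference, with a median of 0.38 beside -0.01 over all genes tested, and none passed an FDR of 0.05 by edgeR, while 17 had an unadjusted p under 0.05 (25% of all genes did) and DESeq2 called 9 (8.86% of all genes). Summed cell markers moved with these groups: the median of the cardiomyocyte markers was 66964 CPM in Control-AMI and 90403 CPM in EMPA–Pre-AMI, and that of the fibroblast markers 2961 and 1547 CPM. Their part in the shift of the pathway genes was not tested. The direction depends on the use of scaling factors. With RLE factors, with mitochondrially encoded genes left out and by DESeq2, 36 of the 38 were also above 0. With library size alone 22 of the 38 were above 0, with a median of 0.09, and 36 were above the median of all genes (-0.32). At an FDR of 0.1, 8 passed, all higher, where 5.33% of all genes were called higher, and they are named here after their values were seen. They were Bdh1, the citrate synthase gene Cs (0.91 ± 0.26), the pyruvate dehydrogenase subunit genes Pdhb (0.82 ± 0.18) and Dlat (0.73 ± 0.19), Suclg1 (0.61 ± 0.19) of the succinyl-CoA ligase, Dld (0.59 ± 0.19), a subunit shared by 2-oxoacid dehydrogenases, Ldhb (0.56 ± 0.18), the lactate dehydrogenase subunit typical of the heart, and Bsg (0.61 ± 0.20), the chaperone that brings MCT1 to the membrane.

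By list, 3 of 6 tested genes of acetyl-CoA entry, 2 of 6 makers of succinyl-CoA, 1 of 3 lactate dehydrogenases, 1 of 3 carriers and chaperones and 1 of 3 genes of ketone oxidation passed an FDR of 0.1. No gene of ketone synthesis (3 tested), isoleucine breakdown (7 tested), cytosolic acetoacetate use (1 tested) or the regulators (6 tested) did, and the receptors Hcar1, Hcar2 and Ffar3 had too few counts to be tested in any population. The count of 8 was 0 when Control-AMI replicate 4, Control-AMI replicate 5 or EMPA–Pre-AMI replicate 3 was left out, and 14 when EMPA–Pre-AMI replicate 4 was. It was also 0 with library size alone, with the replicate block, with a term for the sample list and on list 4 alone.

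**Figure D4:**
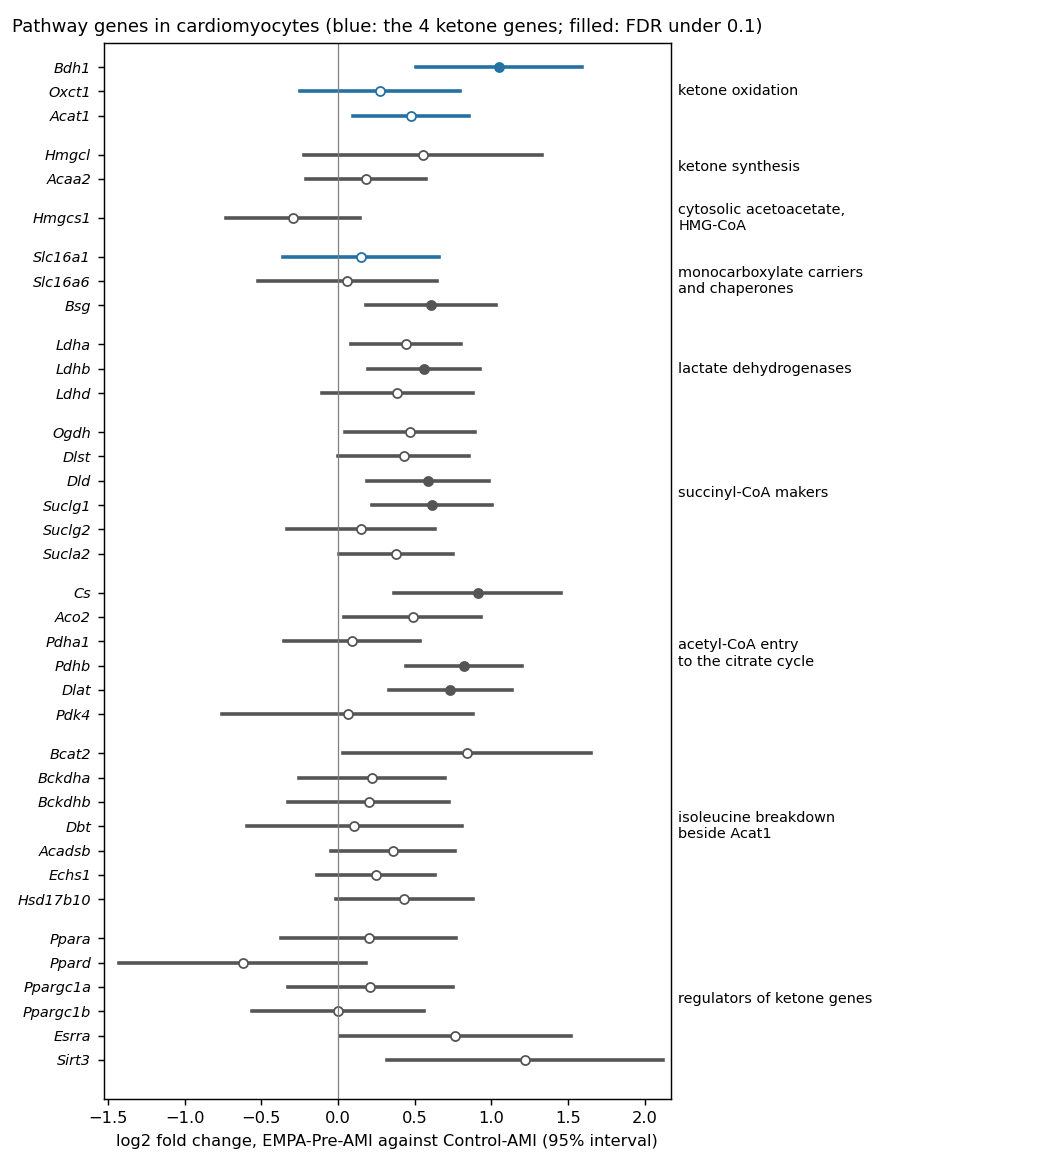
Log2 fold changes of 37 of the 38 tested pathway genes in cardiomyocytes, EMPA–Pre-AMI against Control-AMI, with 95% intervals and TMM scaling, grouped by list. Filled points have an FDR under 0.1, and 35 of the 37 points lie above 0 (22 with library size alone), with Bdh1 at 1.05 and Slc16a1 at 0.15.

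Control-AMI against Sham ran the other way in most of these genes, with 31 of 38 below 0 and a median of -0.13 beside 0.01 over all genes. None passed by edgeR, and the comparisons share the Control-AMI libraries. An unadjusted p under 0.05 was found for 2 of the 38 and for 249 of all 9167 genes (edgeR). DESeq2 called 1 of the 38 and 18 of all genes. In EMPA–Pre-AMI against Sham the kinase gene Pdk4, whose product shuts off pyruvate dehydrogenase, was the 1 gene of 38 called (0.338% of all genes), 2.19 ± 0.44 higher on the log2 scale (FDR = 0.0461, edgeR). Its mean was 13.3 ± 4.16 CPM in Sham and 61.5 ± 46.4 CPM in EMPA–Pre-AMI (SD, n = 4 each). In Control-AMI it was 58.8 ± 22.1 CPM (n = 5), 2.13 ± 0.42 above Sham (log2, FDR = 0.132, edgeR), and the groups with ischemia differed by 0.06 ± 0.39 (FDR = 0.940, edgeR). The call against Sham was lost under 6 of 11 alternatives, the replicate block among them, and when any of 9 of the 13 cardiomyocyte libraries was left out.

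In the sorted cells, 35 of the 54 genes were tested in ECs and 38 in fibroblasts. In ECs 1 of the 35 genes was called against Sham, in Control-AMI (6.56% of all genes) and in EMPA–Pre-AMI (2.71%), namely Acadsb, an acyl-CoA dehydrogenase of isoleucine breakdown. It was higher than in Sham in Control-AMI (0.89 ± 0.18, FDR = 0.00371) and in EMPA–Pre-AMI (0.91 ± 0.17, FDR = 0.00264), both by edgeR and both against the same 4 Sham libraries, and stayed called with any library left out. On list 2 alone the second missed the threshold (FDR = 0.0506, edgeR). In fibroblasts Ppargc1b, a coactivator of mitochondrial genes, was lower than in Sham in Control-AMI (-1.39 ± 0.34, FDR = 0.0305) and in EMPA–Pre-AMI (-1.38 ± 0.35, FDR = 0.0304), by edgeR and again against shared Sham libraries, and each call was lost when any of 4 of the 12 libraries was left out. The second was also lost on list 4 alone (FDR = 0.171, edgeR). Beside it, Slc16a1 was the only gene of the lists called in fibroblasts, so that 1 of 38 was called in Control-AMI against Sham (4.16% of all genes) and 2 in EMPA–Pre-AMI against Sham (5.11%).

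Between Sham populations, 36 of 43 tested pathway genes were called higher in cardiomyocytes than in ECs and none lower, where 28.1% of all genes were called higher and 24.8% lower. Against fibroblasts 32 were called higher and 3 lower, where 24.5% and 22.7% of all genes were. The direction of the 4 ketone genes was also that of all 6 tested genes of acetyl-CoA entry, all 6 makers of succinyl-CoA and all 3 lactate dehydrogenases in both comparisons. Those with the widest differences from ECs, beside Bdh1, were the coactivator gene Ppargc1a (6.03 ± 0.43), the nuclear receptor gene Ppara (6.02 ± 0.43), Pdk4 (5.97 ± 0.82) and Ldhb (5.77 ± 0.35). Against fibroblasts they were the D-lactate dehydrogenase gene Ldhd (7.60 ± 0.70), Ppargc1a (7.11 ± 0.46), Bdh1, Ldhb (5.35 ± 0.33) and Ppara (4.39 ± 0.36). Ldhd and Pdk4 had means of only 9.91 and 13.3 CPM in Sham cardiomyocytes, scaled within that population. Their differences, from fibroblasts for Ldhd and from ECs for Pdk4, rest on few or no counts there, so their size is uncertain. Between ECs and fibroblasts, 11 of 42 were called lower in ECs and 1 higher, where 20.2% and 17.6% of all genes were, and the 12 calls became 4 with a term for the sample list. Fibroblasts exceeded ECs in genes such as Bdh2 (5.47 against 0 CPM) and in the lactate exporter gene Slc16a3 (8.74 ± 2.19 against 2.06 ± 1.35 CPM, mean ± SD, n = 4 each). These EC levels rest on few or no counts, as 3 counts are 1.303 CPM in the smallest Sham EC library. The 2 populations also shared no sample list in Sham, and the values of these genes with the list term are not given here.

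The genes whose levels most resembled each of the 4 were sought by Pearson's r of log2 CPM, as a description with no test. The populations differ in composition and in their range of depth, so that r over all 38 libraries mainly reflects the difference between cardiomyocytes and the rest. Over these 38 libraries the nearest genes were Cidea, Acta1 and Ndufb8 for Bdh1 (r = 0.984, 0.984 and 0.983), Pdha1, Acaa2 and Ndufa13 for Oxct1 (0.989, 0.988 and 0.987), Ogdh, Slc25a4 and Ndufa3 for Acat1 (0.991, 0.991 and 0.990) and Fblim1, Nexn and Fsaf1 for Slc16a1 (0.975, 0.975 and 0.974). For each, 728 to 949 of 12085 genes had an r above 0.9.

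Within the 13 cardiomyocyte libraries the 4 genes were less alike. Oxct1 and Slc16a1 had an r of 0.904 with each other, rank 16 for Oxct1 and rank 11 for Slc16a1 among the 9167 genes tested. Bdh1 and Acat1 had an r of 0.635, only rank 431 for Bdh1 and rank 867 for Acat1. Bdh1 had an r of 0.296 with Oxct1 and of 0.204 with Slc16a1. The nearest genes there were Mapkapk2, Csnk2b and Rangrf for Bdh1 (0.937, 0.916 and 0.908), Bzw2, Pkm and Myom1 for Oxct1 (0.952, 0.944 and 0.941), Eif4e, Mdh1 and Ephx2 for Acat1 (0.968, 0.965 and 0.958) and Kiz, Pdrg1 and Rassf3 for Slc16a1 (0.948, 0.930 and 0.915). Control-AMI replicates 3 and 4 held the highest and the lowest values of both Oxct1 and Slc16a1. Their summed cardiomyocyte markers were 103933 and 49844 CPM, and their fibroblast markers 1846 and 4207 CPM. The part of cell markers in these correlations was not tested.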

How the data were processed

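Hearts were digested and 3′ RNA libraries were prepared from cardiomyocytes, ECs and fibroblasts. Per the submitters' processing notes and the study's methods, reads were trimmed with cutadapt 2.8 and quantified by Salmon on GRCm39. The authors deposited estimated counts, not normalized, for 35682 genes. The Salmon version and whether molecular identifiers were used are not given in the sources used here. Each library is 1 pool of 2 hearts, so p-values measure only the spread between these libraries. The study took the pelleted cardiomyocytes and the sorted cells from the same digested hearts, so populations of one treatment group share hearts. Which libraries share them is not told by the labels. The tests between populations treated the libraries as independent. The floor of 3 counts covers counting error only.

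The estimated counts, of which 4.55% were not whole, were rounded here. Gene symbols were looked up in a different GRCm39 annotation release and found for 35407 genes. In R 4.3.3 with edgeR 4.0.16, each population was fitted by itself with the 3 treatment groups (filterByExpr, minimum count 10, TMM factors, robust quasi-likelihood test). Sham populations, and differences between populations in a treatment effect, were fitted in one model of 9 groups. P-values were adjusted by Benjamini-Hochberg over all genes tested (FDR). A call is an FDR under 0.05, with 0.1 shown for cardiomyocytes. Intervals are at 95%. Folds against a group at 0 used 3 counts in its smallest library. The 62 pairs of libraries of one group differed by 3.60 to 50.6 times counting error (mean chi-square per gene), so none was taken for a duplicate.

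The 4 genes and the lists of pathway and marker genes were chosen with earlier results of these data known. Named genes were the 4 in every comparison, at most 5 called pathway genes per comparison by size of change, and the 3 genes most correlated with each of the 4. The genes named at an FDR of 0.1 fall outside this rule. Alternatives were DESeq2 1.42.0, RLE factors, library size alone, mitochondrially encoded genes left out, estimation that is not robust, a minimum of 10 counts in each library, all genes kept, the replicate number as a block, sample list as a term, 1 list alone, only the groups compared and each library left out. The steps were tested on simulated data. No library was left out of the main values. One gene of the lists is counted but not reported here.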

Additional observations from a re-analysis of the deposited data

Results flagged for a closer look

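In the 30 groups of 4 or 5 libraries in which a ketone gene was measured (Bdh1 in cardiomyocytes only), 2 libraries stood apart from the others of their group by Dixon's test, where chance gives about 1 in 20 groups. Oxct1 in Sham cardiomyocyte replicate 3 was 892 CPM, and the next highest library was at 735 CPM. Slc16a1 in Sham fibroblast replicate 3 was 29.5 CPM, and the next highest was at 19.9 CPM. Without that fibroblast library, the difference between EMPA–Pre-AMI and Sham was 1.19 (log2, FDR = 0.0329, edgeR).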

How the results depend on the processing

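Of 2085 values under alternatives, 1934 kept their direction and their side of the threshold, or a count within 1.5 times. Higher levels in Sham cardiomyocytes were called for all 4 genes under every alternative run except the minimum of 10 counts in every library, where Bdh1 was not tested and the other 3 were called. Bdh1 in EMPA–Pre-AMI against Control-AMI cardiomyocytes passed an FDR of 0.05 with DESeq2 (1.07), no filter (1.05) and at least 10 counts in every library (1.01), each making 1 call of the 4 genes, and ran from 0.75 to 1.22 (0 or 1 call) with libraries left out. Slc16a1 in fibroblasts, EMPA–Pre-AMI against Sham, lost its call with library size alone (0.89), only the 2 groups (1.01) and 1 list (0.95), which left 0 calls, and ran from 0.84 to 1.21 with libraries left out. Sham ECs against fibroblasts lost both calls with the list term (-0.46 for Oxct1, -0.49 for Slc16a1, 0 calls), and had 3 calls over the mean of treatments. With libraries left out, Slc16a1 in that comparison ran from -1.14 to -0.73, with 1 to 3 calls. The 8 pathway genes at an FDR of 0.1 became 4 with no filter, 0 with library size alone, the replicate block, the list term, 2 groups or 1 list, and 0 to 14 with libraries left out. Differences between populations gave 0 to 1 call with libraries left out.

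Signs turned only in differences that were not called. With library size alone they were -0.12 (Slc16a1, EMPA–Pre-AMI against Control-AMI, cardiomyocytes), -0.13 (Oxct1, EMPA–Pre-AMI against Sham, cardiomyocytes), -0.00085 and -0.0563 (Control-AMI against Sham, Oxct1 in ECs and fibroblasts) and -0.0597 (EMPA–Pre-AMI against Sham, Slc16a1 in ECs). The list term gave -0.27 (Oxct1, Control-AMI, ECs), -0.0137 (Slc16a1, EMPA–Pre-AMI, ECs), -0.081 (Acat1, EMPA–Pre-AMI against Control-AMI, fibroblasts) and 0.17 (Oxct1, EMPA–Pre-AMI, fibroblasts). One list alone gave -0.43 (Oxct1, ECs), -0.0873 (Oxct1, fibroblasts) and 0.0607 (Acat1, fibroblasts) in Control-AMI against Sham, and 0.0113 (Oxct1) and -0.14 (Acat1) in fibroblasts of EMPA–Pre-AMI against Control-AMI. At least 10 counts gave -0.0044 (Slc16a1, EMPA–Pre-AMI against Sham, ECs). With libraries left out, the ranges that crossed 0 were -0.0048 to 0.39 and -0.0315 to 0.26 (Slc16a1 and Oxct1, cardiomyocytes), -0.13 to 0.22, -0.21 to 0.0026 and -0.23 to 0.23 (Oxct1, Acat1 and Slc16a1, ECs), and -0.075 to 0.20, -0.30 to 0.0128, -0.0733 to 0.13, -0.21 to 0.0713 and -0.27 to 0.0237 (fibroblasts). The cause of these changes was not tested.

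Replicate numbers were not taken to pair the samples in the main values. Of the same-numbered pairs of libraries, 3 of 12 in cardiomyocytes (-0.09 to 0.17), 4 of 12 in ECs (-0.06 to 0.21) and 6 of 12 in fibroblasts (-0.11 to 0.48) had deviations correlated over 0.1. Their median r was 0.014, 0.041 and 0.099 in the same order, against -0.025, -0.008 and -0.010 for pairs with different numbers. A pairing by number is therefore not excluded, and the replicate block was run as an alternative. The replicate block kept 65 of 68 values and counts, Bdh1 in EMPA–Pre-AMI against Control-AMI being 0.97 (FDR = 0.113, edgeR), and changed 3 counts of pathway genes. Depth limits Bdh1 outside cardiomyocytes and Slc16a1 in ECs.

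DESeq2 called over 1.5 times as many genes as edgeR in 5 comparisons of treatment groups. In cardiomyocytes it called 812 against 2 in EMPA–Pre-AMI against Control-AMI, 18 against 6 in Control-AMI against Sham, and 114 higher and 84 lower against 28 and 3 in EMPA–Pre-AMI against Sham, with 9, 1 and 3 pathway genes against 0, 0 and 1. In fibroblasts it called 536 higher and 236 lower against 320 and 125 (Control-AMI against Sham) and 604 and 254 against 390 and 156 (EMPA–Pre-AMI against Sham).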
